A study of Mus musculus with 17 samples.

Results

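Resident large peritoneal macrophages are described here through 9 genes used as their markers, taken by symbol from the deposited read count table of 43629 genes: Timd4, Cd5l, Gata6, Selp, Alox15, Marco, Fcna, Icam2 and Adgre1. Each was found once, by its Ensembl identifier, and all 9 were among the 22671 genes tested. The data came from ID8, a line made from mouse ovarian surface epithelium that forms ovarian tumours in mice. Total RNA was sequenced from 17 libraries in 8 groups. They were the cultured ID8 line (n = 1), orthotopic tumours grown from ID8 cells placed in the bursa of the right ovary (n = 3), subcutaneous tumours (replicates 2 and 3, n = 2), a first (n = 3) and a second (n = 3) tap of ascites, tumours on the intestine (n = 3), and healthy ovary and healthy intestine of C57BL6 mice (n = 1 each). The labels place the subcutaneous tumours on the flanks in the protocol and on the scruff in the tissue entry. They give no strain for the tumour-bearing mice, no age and no time of a tap, and they do not tie samples to animals, so p-values measure only the spread between these samples. The ascites and the tumours were sequenced whole, with no sorting for macrophages. In such bulk samples fewer cells of a type and less RNA per cell cannot be told apart.

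Large peritoneal macrophages are the main resident macrophages of the unperturbed peritoneal cavity. They float in the fluid, clear dying cells, and depend on the transcription factor Gata6, which is induced in them by retinoic acid from the surrounding tissue. Cells of this kind carry high F4/80 (Adgre1) and Icam2, and many carry the phosphatidylserine receptor Tim4 (Timd4). They have been studied in ovarian cancer, which spreads through this cavity. None of the 9 genes is limited to these cells. Timd4, Cd5l and Marco are also made by macrophages of spleen and lymph node, Selp and Icam2 by endothelium and platelets, Alox15 by eosinophils, and Gata6 by epithelial and steroid-producing cells.

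The sequence upstream of Timd4, Cd5l and Marco is shown because these 3 genes followed each other most closely across the libraries (described further on). RefSeq promoter entries (GRCm38.p6) were matched by symbol for 5 of the 9 genes, Cd5l, Fcna, Marco, Selp and Timd4. The 250 bases before the annotated start are printed in the direction of the gene, with matches of the searched letters in capitals. The Cd5l stretch is chr3:87357631-87357880 on the plus strand, that of Marco chr1:120505025-120505274 on the minus strand and that of Timd4 chr11:46810549-46810798 on the plus strand.
Cd5l: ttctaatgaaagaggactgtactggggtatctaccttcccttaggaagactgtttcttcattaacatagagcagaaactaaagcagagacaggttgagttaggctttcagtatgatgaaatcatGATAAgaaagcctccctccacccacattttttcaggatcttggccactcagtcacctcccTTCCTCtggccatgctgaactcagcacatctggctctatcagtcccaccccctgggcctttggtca
Marco: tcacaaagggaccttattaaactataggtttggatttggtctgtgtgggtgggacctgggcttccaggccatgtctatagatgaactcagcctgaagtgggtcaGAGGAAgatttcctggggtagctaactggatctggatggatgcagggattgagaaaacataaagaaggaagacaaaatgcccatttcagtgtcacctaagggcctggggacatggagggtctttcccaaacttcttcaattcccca
Timd4: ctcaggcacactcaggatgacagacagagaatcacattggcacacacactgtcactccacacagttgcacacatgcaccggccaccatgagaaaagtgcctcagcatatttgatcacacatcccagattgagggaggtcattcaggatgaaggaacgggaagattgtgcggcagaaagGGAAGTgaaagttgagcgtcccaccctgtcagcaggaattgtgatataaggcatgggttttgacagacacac
The letters searched on both strands were GATAA, the core bound by GATA factors, and GAGGAA and GGAAGT, which are parts of the site of the macrophage factor PU.1 and overlap each other where they occur in sequence. Cd5l held 1 GATAA and 1 GAGGAA (read on the other strand as TTCCTC), Marco 1 GAGGAA and Timd4 1 GGAAGT. In Fcna there were 3 GAGGAA and 1 GGAAGT, and Selp held none of the 3. Of 32851 upstream windows of the same length, 22.6% held GATAA, 23.3% GAGGAA and 19.7% GGAAGT. Such a match is a description of letters and does not show binding.

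Total counts ran from 12031221 to 38902048 per library (median 27342134), and levels are given as CPM, counts per 1000000 counts of a library after scaling with edgeR's TMM factors. CPM is not divided by transcript length, so levels were compared between libraries and not between genes. More genes had a count in subcutaneous tumour 3 (33393), first tap 3 (32846) and second tap 1 (32775) than in the other libraries (21157 to 26838). The tissue labels were reflected in the marker lists. The steroid-producing cell genes summed to 2961 CPM in healthy ovary, and the intestinal epithelium genes to 8952 CPM in healthy intestine and 2810 to 9699 CPM in the intestinal tumours, against 3.45 to 13.1 CPM in the other tumours and ascites. The intestinal tumour samples thus held RNA of gut epithelium. The summed level of 14 pan-macrophage genes, such as Csf1r, Lyz2 and C1qa, was 15.5 CPM in the cultured line. It ran from 429 to 680 CPM in the orthotopic tumours and from 590 to 1080 CPM in the intestinal tumours. It was 2310, 15448 and 3799 CPM in first taps 1, 2 and 3 and 9306, 7489 and 5546 CPM in second taps 1, 2 and 3, so that every ascites library lay above every solid tumour.

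Gata6, the transcription factor of the resident cells, was the exception among the 9. The cultured ID8 line, which had no count of Timd4, Cd5l, Alox15, Marco or Adgre1, held 10352 Gata6 counts, or 274 CPM. Gata6 stood at 333, 278 and 240 CPM in orthotopic tumours 1, 2 and 3, at 277, 71.5 and 282 CPM in first taps 1, 2 and 3, and at 191, 272 and 245 CPM in second taps 1, 2 and 3. In the intestinal tumours it was 131, 272 and 175 CPM, in the subcutaneous tumours 26.4 and 172 CPM, in healthy ovary 74.5 CPM and in healthy intestine 167 CPM. The tumour and ascites groups overlapped, apart from the subcutaneous tumours, which lay below the orthotopic tumours and the second taps. In ascites, the lowest value was that of first tap 2, the library with the most macrophage RNA. The log2 fold change was -0.43 ± 0.61 (SE, adjusted p = 0.747) in the first tap and -0.27 ± 0.61 (adjusted p = 0.860) in the second tap against orthotopic tumours. In these libraries Gata6 therefore could not be read as a marker of macrophages, and the statements on the resident macrophage pattern below rest on the other 8 genes. The 3 genes whose log2 levels across the 17 libraries were most like Gata6 were Lsr (Pearson r = 0.96), a gene of tricellular junctions, Nectin2 (r = 0.96), an adhesion molecule, and Shroom3 (r = 0.93), a regulator of epithelial shape. These are descriptions over libraries that share groups and scaling, as are all correlations below.

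**Figure D1:**
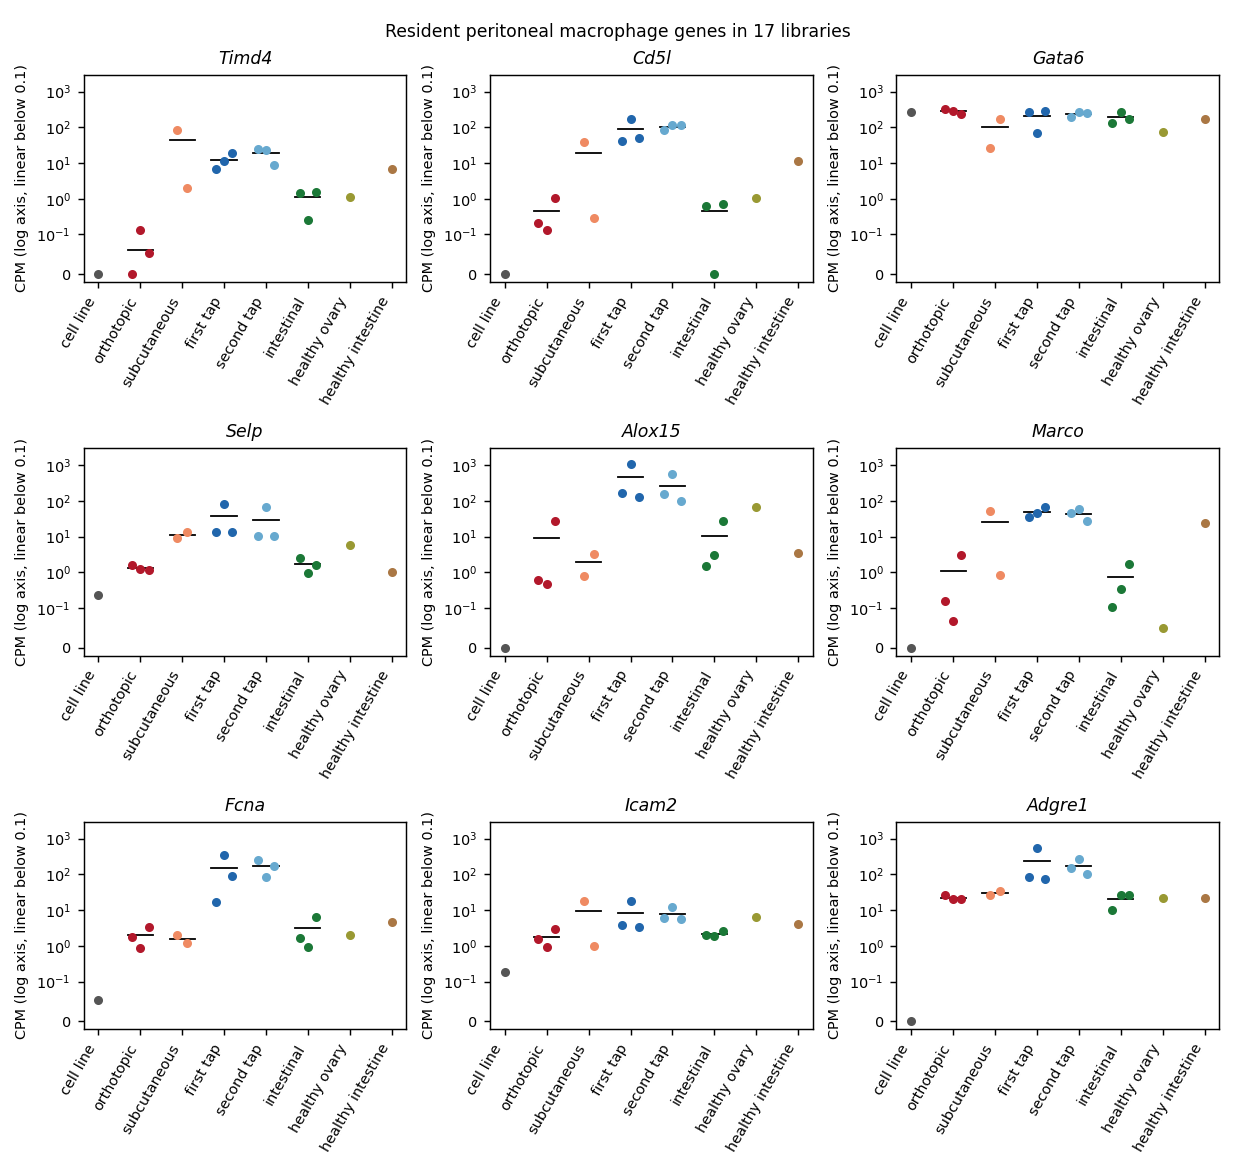
Level of each of the 9 genes in the 17 libraries, in CPM on an axis that is logarithmic above 0.1 and linear below it, with 1 point per library and a bar at the mean of each replicated group. The 6 ascites libraries lie above the 3 orthotopic tumours for 8 genes, while Gata6 is at 274 CPM in the cell line and overlaps between ascites and orthotopic tumours. The share of all genes that separate in this way was not counted.

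Timd4 encodes Tim4, which binds phosphatidylserine on dying cells. Its level was 6.74, 11.3 and 19.4 CPM in first taps 1, 2 and 3 and 24.5, 22.6 and 8.92 CPM in second taps 1, 2 and 3. In the orthotopic tumours it was 0, 0.133 and 0.0526 CPM, from 6 counts in all. The intestinal tumours held 1.47, 0.255 and 1.57 CPM, between these 2 kinds of sample and without overlap with either. The highest value of the 17 libraries was the 86.1 CPM of subcutaneous tumour 2, while subcutaneous tumour 3 had 2.01 CPM. In the cell line the count was 0, and 3 counts would be 0.0795 CPM. The mean of the first tap was 157-fold above this floor and that of the second 235-fold, with no replicate of the line.

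Marco, a scavenger receptor for bacteria and particles, was at 35.6, 44.4 and 67.5 CPM in first taps 1, 2 and 3 and at 46.5, 57.5 and 27.0 CPM in second taps 1, 2 and 3. It was 0.156, 0.0665 and 3.13 CPM in the orthotopic tumours and 0.105, 0.340 and 1.74 CPM in the intestinal tumours. Subcutaneous tumour 2 (51.0 CPM) lay within the range of the ascites and subcutaneous tumour 3 (0.834 CPM) far below it. Healthy intestine had 23.9 CPM, just below the lowest ascites library.

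Cd5l encodes AIM, a secreted protein of tissue macrophages that binds lipids and circulating IgM. Levels were 41.7, 173 and 50.8 CPM in first taps 1, 2 and 3 and 85.5, 113 and 112 CPM in second taps 1, 2 and 3. They were 0.208, 0.133 and 1.05 CPM in the orthotopic tumours and 0.630, 0 and 0.712 CPM in the intestinal tumours, which overlapped each other. All 6 ascites libraries exceeded the other 11, of which subcutaneous tumour 2 (38.0 CPM) and healthy intestine (11.0 CPM) came next.

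Fcna, ficolin A, is a secreted lectin that starts the complement cascade. It was at 17.1, 357 and 90.2 CPM in first taps 1, 2 and 3 and at 250, 84.8 and 168 CPM in second taps 1, 2 and 3. The orthotopic tumours had 1.74, 0.864 and 3.42 CPM, the subcutaneous tumours 2.00 and 1.18 CPM and the intestinal tumours 1.68, 0.934 and 6.55 CPM. Fcna separated the ascites from every other library, including subcutaneous tumour 2 and both healthy tissues (2.06 CPM in ovary, 4.62 CPM in intestine).

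Alox15, a lipoxygenase that makes lipid mediators and is known in resident peritoneal macrophages, reached 167, 1084 and 131 CPM in first taps 1, 2 and 3 and 153, 547 and 96.5 CPM in second taps 1, 2 and 3. Orthotopic tumours 1 and 2 had 0.623 and 0.465 CPM and orthotopic tumour 3 had 26.4 CPM. The intestinal tumours were uneven in the same way, at 1.47, 3.06 and 26.6 CPM. Healthy ovary held 68.1 CPM, the highest of the samples other than ascites. Eosinophils also make Alox15, and the 6 genes of the eosinophil list summed to 1.74 to 9.71 CPM in ascites, above the 0.857 to 1.11 CPM of the orthotopic tumours. Siglecf was at 0.612 to 8.29 CPM in ascites, while Epx and Prg2, which encode granule proteins, were at up to 0.765 and 0.191 CPM. Of the 5 genes of this list that were tested none passed in either tap against the orthotopic tumours (median log2 fold change 2.53 in the first), and their part in the Alox15 values was not tested.

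Selp encodes the adhesion molecule P-selectin. It stood at 13.7, 82.0 and 13.8 CPM in first taps 1, 2 and 3 and at 10.2, 68.4 and 10.1 CPM in second taps 1, 2 and 3, against 1.64, 1.26 and 1.16 CPM in the orthotopic and 2.52, 0.934 and 1.60 CPM in the intestinal tumours. Subcutaneous tumours 2 and 3 had 9.03 and 13.5 CPM, which overlapped the ascites. Icam2, an adhesion molecule of endothelium and of these macrophages, was at 3.94, 18.0 and 3.40 CPM in first taps 1, 2 and 3 and at 5.86, 12.1 and 5.73 CPM in second taps 1, 2 and 3. The orthotopic tumours had 1.53, 0.931 and 2.95 CPM, the intestinal tumours 1.99, 1.87 and 2.63 CPM, and subcutaneous tumours 2 and 3 had 17.9 and 0.982 CPM. Healthy ovary (6.56 CPM) and healthy intestine (4.16 CPM) fell inside the ascites range of Icam2.

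Adgre1 encodes F4/80, which most mouse macrophages carry. Its level was 87.0, 556 and 73.1 CPM in first taps 1, 2 and 3 and 154, 270 and 103 CPM in second taps 1, 2 and 3. All other libraries from mice lay between 9.76 and 34.3 CPM. Unlike the more restricted markers, Adgre1 was well detected in the orthotopic tumours, at 26.2, 20.0 and 19.9 CPM.

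Ascites was compared with the orthotopic tumours to show how the 9 genes differed between the floating and the solid compartment. In the first tap 5 of the 9 rose and none fell, against 1.58% of all genes tested that passed in either direction (edgeR quasi-likelihood test, Benjamini-Hochberg adjusted p under 0.05, here and below). The median log2 fold change of the 9 was 5.44, that of all genes 0.18. Timd4 rose 202-fold from a mean of 0.0619 ± 0.067 to 12.5 ± 6.43 CPM (SD, n = 3 each; log2 fold change 7.64 ± 1.45 SE, adjusted p = 0.0328). Cd5l rose 191-fold, from 0.464 ± 0.511 to 88.7 ± 73.6 CPM (7.55 ± 1.61 on the log2 scale, adjusted p = 0.0421). Fcna (6.26 ± 1.17, adjusted p = 0.0313), Selp (4.75 ± 0.96, adjusted p = 0.0383) and Adgre1 (3.44 ± 0.75, adjusted p = 0.0446) rose as well. Alox15 (5.65 ± 1.78, adjusted p = 0.119), Marco (5.44 ± 1.56, adjusted p = 0.0962) and Icam2 (2.22 ± 0.93, adjusted p = 0.217) did not pass, although the first tap libraries did not overlap the orthotopic tumours for any of the 3. The share of all genes without such overlap was not counted in any comparison, so a lack of overlap is a description only. With any 1 of orthotopic tumours 1, 2 and 3 left out, or first tap 2, none of the 9 passed, with the same direction of each log2 fold change. Without the filter on low counts 1 passed (Selp), and with a term for the prefix of the library name 3 did (Timd4, Selp and Fcna). DESeq2 called 7, adding Alox15 (adjusted p = 0.00112) and Marco (adjusted p = 0.000931).

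In the second tap 4 of the 9 rose against the orthotopic tumours, where 1.09% of all genes passed in either direction: Timd4 (8.22 ± 1.48 SE on the log2 scale, adjusted p = 0.0388), Cd5l (7.77 ± 1.63, adjusted p = 0.0471), Fcna (6.38 ± 1.17, adjusted p = 0.0405) and Selp (4.45 ± 0.95, adjusted p = 0.0491). Adgre1 (2.99 ± 0.74, adjusted p = 0.0753), Marco (5.27 ± 1.55, adjusted p = 0.124), Alox15 (4.85 ± 1.71, adjusted p = 0.188) and Icam2 (2.13 ± 0.92, adjusted p = 0.278) did not pass. Both taps were set against the same 3 orthotopic libraries, so these are not independent comparisons. None of the 9 passed when any 1 of the 6 libraries compared was left out. The count was 1 without the low-count filter (Timd4), 2 with another scaling of the libraries (relative log expression; Timd4 and Fcna), 2 with the prefix term (the same 2 genes) and 7 in DESeq2.

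Between the taps themselves no difference passed for any of the 9, none of which had an unadjusted p under 0.05, and 0% of all genes passed. No gene of the 22671 passed in edgeR, 145 had an unadjusted p under 0.05, and DESeq2 called 1. The log2 difference of the second from the first tap ran from -0.80 ± 1.46 (SE) for Alox15 to 0.58 ± 1.02 for Timd4, and the libraries of the taps overlapped for all 9 genes. Without first tap 2, Selp (1.11), Alox15 (0.84), Icam2 (1.11) and Adgre1 (1.14) had the higher level in the second tap, in place of the first. With SEs of 0.61 to 1.46 on the log2 scale, the missing call does not show that the taps were alike.

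**Figure D2:**
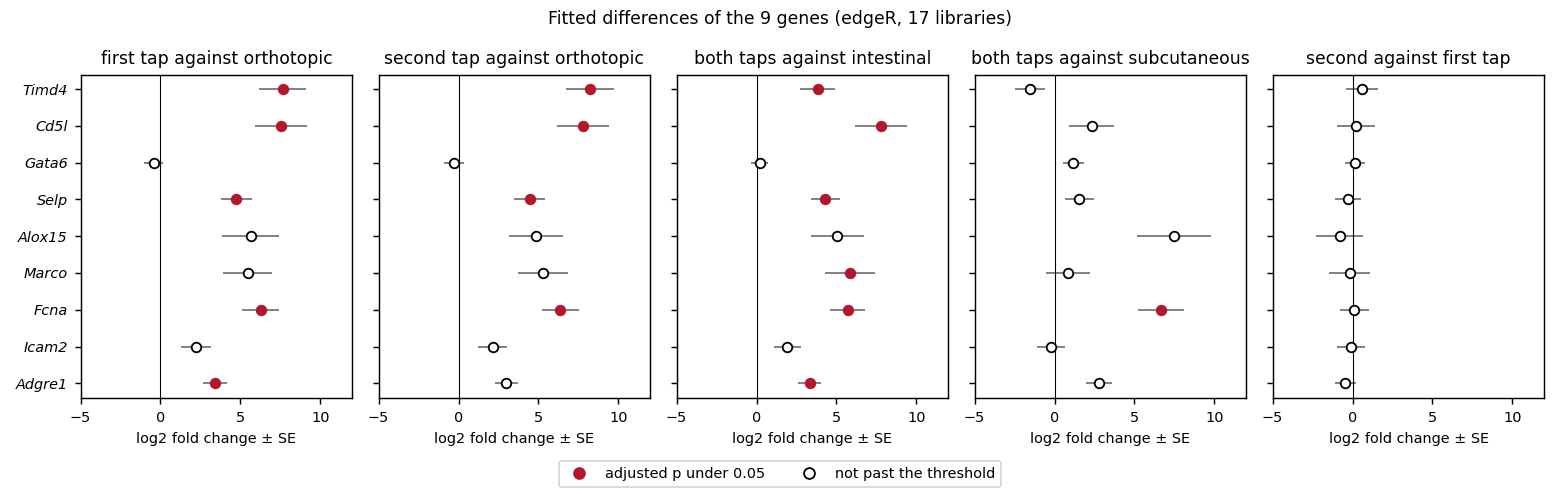
Fitted log2 fold changes with their standard errors for the 9 genes in 5 comparisons, with filled points where the adjusted p was under 0.05. Timd4, Cd5l, Selp and Fcna are filled in both taps against orthotopic tumours, Fcna alone against subcutaneous tumours, and no gene between the taps.

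Against the intestinal tumours, which grew in the same cavity, the 6 ascites libraries were higher for 6 of the 9 genes, with 18.3% of all genes passing in either direction. The mean of Cd5l was 215-fold higher (7.78 ± 1.63 SE on the log2 scale, adjusted p = 0.00583), that of Fcna 52.8-fold (5.69 ± 1.1, adjusted p = 0.00379), that of Marco 63.6-fold (5.87 ± 1.56, adjusted p = 0.0218) and that of Selp 19.6-fold (4.31 ± 0.91, adjusted p = 0.00630). Adgre1 (3.32 ± 0.71, adjusted p = 0.00662) and Timd4 (3.82 ± 1.11, adjusted p = 0.0329) passed too. Alox15 (5.06 ± 1.67, adjusted p = 0.0550) and Icam2 (1.91 ± 0.85, adjusted p = 0.139) did not, and neither overlapped between the groups. With 1 library left out at a time, 4 to 6 of the 9 passed. Timd4 did not pass without any 1 of intestinal tumours 1, 2 and 3 and second taps 1 and 2 (adjusted p = 0.0518 to 0.140), nor Marco without intestinal tumour 1 or 2 (adjusted p = 0.0927 and 0.112), while Alox15 passed without intestinal tumour 3 (adjusted p = 0.0382). Without the low-count filter Timd4 (adjusted p = 0.0747) and Marco (adjusted p = 0.0755) did not pass, and DESeq2 called Alox15 as well (adjusted p = 0.000258). The labels do not say whether both taps came from the same animals. If they did, the 6 ascites libraries were not independent, and the p-values of comparisons that pool the taps could be too small.

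Between the intestinal and the orthotopic tumours none of the 9 passed in edgeR, while 15.5% of all genes did. At an unadjusted p under 0.05 there was 1 gene, Timd4, whose 3 intestinal libraries all exceeded the 3 orthotopic ones (4.11 ± 1.35 SE on the log2 scale, adjusted p = 0.0585). Timd4 passed in DESeq2 (adjusted p = 0.00362) and without the 3 libraries with the most genes counted (adjusted p = 0.0213). The other 8 lay between -0.56 ± 0.61 (Gata6) and 0.62 ± 0.96 (Fcna), with changes of sign when 1 library was left out. Without orthotopic tumour 3, Marco was at 2.74 and Cd5l at 1.3, and without intestinal tumour 3, Alox15 was at -2.07 and Fcna at -0.75. Healthy intestine had more Cd5l (11.0 CPM), Marco (23.9 CPM) and Timd4 (6.67 CPM) than any of the 3 intestinal tumours, in a single library that allows no test. Its pan-macrophage sum of 1107 CPM was close to the highest of the intestinal tumours (1080 CPM), and its B cell genes summed to 192 CPM against 25.8 to 62.3 CPM there.

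The subcutaneous tumours, which lie outside the peritoneal cavity, differed from each other in Timd4, Cd5l, Marco and Icam2. Subcutaneous tumour 2 had more Timd4 than any ascites library, and Cd5l, Marco and Icam2 at or near the ascites range, but Fcna (2.00 CPM) and Alox15 (0.782 CPM) far below it. The same library had 1418 CPM of 5 B cell genes, where subcutaneous tumour 3 had 4.32 CPM. It also had Cxcl13 at 598 CPM, Siglec1 at 319 CPM, Spic at 11.4 CPM and Pecam1 at 268 CPM, against 6.23, 11.8, 2.65 and 60.1 CPM in subcutaneous tumour 3. These encode a B cell attractant, sialoadhesin of lymph node and other tissue macrophages, a transcription factor of splenic macrophages and an endothelial adhesion molecule. In ascites Siglec1 was at 110 to 2534 CPM, a range that holds its value here, while Cxcl13, Spic and Pecam1 reached 74.1, 1.54 and 12.9 CPM. Their part in the Timd4, Cd5l and Marco values of this library was not tested. Against the orthotopic tumours none of the 9 passed in edgeR, 5 had an unadjusted p under 0.05, and 0.0132% of all genes passed. Timd4 (9.46 ± 1.56 SE on the log2 scale, adjusted p = 0.0532) did not overlap between the groups, nor did Selp (3.05 ± 0.94, adjusted p = 0.120) and Gata6 (-1.52 ± 0.72, adjusted p = 0.253). Without subcutaneous tumour 3, Timd4 (adjusted p = 0.0013), Cd5l (adjusted p = 0.0166) and Gata6 (lower, adjusted p = 0.0352) passed, with a single subcutaneous library left that is assumed to vary like the other groups. Without subcutaneous tumour 2, Cd5l, Marco and Icam2 took the other sign (-0.67, -0.43 and -0.88).

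Of the 9 genes, Fcna rose in ascites against the subcutaneous tumours (102-fold in the means, 6.66 ± 1.41 SE on the log2 scale, adjusted p = 0.0174), where 6.32% of all genes passed. Alox15 (7.46 ± 2.31, adjusted p = 0.0809), Adgre1 (2.76 ± 0.82, adjusted p = 0.0696) and Cd5l (2.32 ± 1.39, adjusted p = 0.355) did not overlap between the groups and did not pass. Timd4 had a lower mean in ascites (-1.53 ± 0.95, adjusted p = 0.371), and a higher one without subcutaneous tumour 2 (2.92). Fcna did not pass without subcutaneous tumour 2 (adjusted p = 0.121) or without subcutaneous tumour 3 (adjusted p = 0.0963), when Gata6 passed instead (higher, adjusted p = 0.0408). Without first tap 2 or first tap 3, Adgre1 passed beside Fcna (adjusted p = 0.0401 and 0.0331).

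Since ascites held more macrophage RNA, each gene was also set against the sum of the 14 pan-macrophage genes of its own library. Per 1000 CPM of that sum, Cd5l was 18.1, 11.2 and 13.4 in first taps 1, 2 and 3 and 9.18, 15.1 and 20.3 in second taps 1, 2 and 3, against 0.364, 0.310 and 1.55 in the orthotopic and 1.07, 0 and 0.669 in the intestinal tumours. Fcna was at 7.38 to 30.3 per 1000 in ascites, above the 2.02 to 5.03 of the orthotopic and the 0.864 to 6.15 of the intestinal tumours. Timd4 was at 0.734 to 5.12 in ascites and at 0 to 0.310 in the orthotopic tumours, and overlapped the intestinal tumours (0.236 to 2.49). On this scale the ascites libraries lay above all 3 orthotopic tumours for Cd5l, Fcna and Timd4, and above all 3 intestinal tumours for Cd5l, Fcna and Marco (2.87 to 17.8 against 0.178 to 1.64).

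Adgre1 per 1000 was at 16.5 to 37.7 in ascites and overlapped the orthotopic (29.2 to 46.8) and the intestinal tumours (16.5 to 24.3). Selp, at 1.1 to 9.13 in ascites, overlapped both as well (1.70 to 2.95 and 0.864 to 4.27). In the other direction, Icam2 was lower in ascites (0.630 to 1.71) than in the orthotopic (2.17 to 4.34) and the intestinal tumours (1.73 to 3.38), and so was Gata6 (4.63 to 120 against 354 to 648 and 165 to 252). Marco overlapped the orthotopic tumours through first tap 2 (2.87) and orthotopic tumour 3 (4.61). Alox15 (16.4 to 73.1 in ascites) overlapped them through orthotopic tumour 3 (38.9), and the intestinal tumours through intestinal tumour 3 (25.0). First tap 2 combined the highest macrophage sum with the lowest Timd4 (0.734) and Marco (2.87) per 1000 of the 6 ascites libraries. It was also the library with the highest level of the monocyte genes F13a1, 2383 CPM against 150 to 618 CPM in the other 5, and Chil3, 1792 CPM against 1.95 to 32.6 CPM. Ccr2, of the same list, was at 212 CPM there and 219 CPM in second tap 1. The 7 monocyte genes summed to 5004 CPM in first tap 2 and 303 to 927 CPM in the other 5. A list of 8 genes of resident macrophages of other tissues was highest there too, at 4006 CPM against 192 to 1338 CPM. The ratios per 1000 are given without a test.

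**Figure D3:**
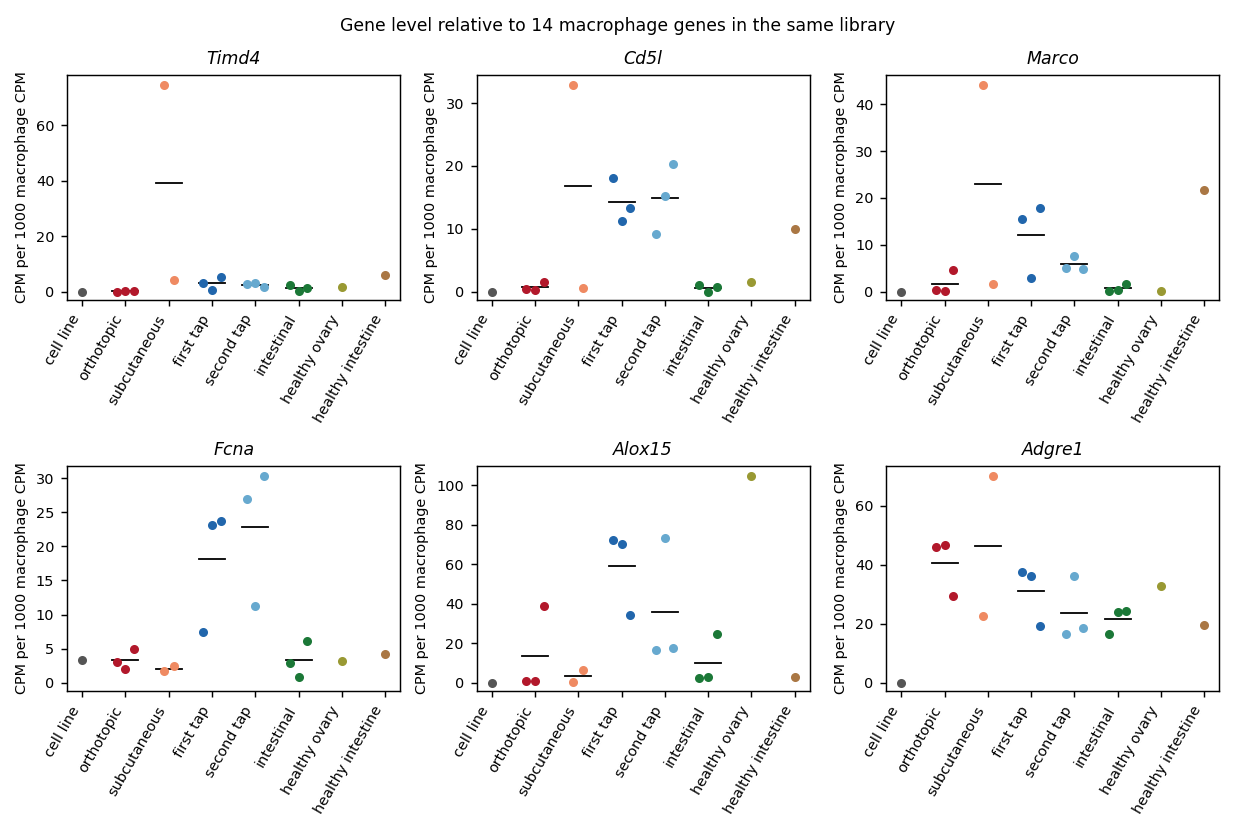
Level of 6 of the genes per 1000 CPM of the 14 pan-macrophage genes in the same library, on linear axes, with 1 point per library and a bar at the mean of each replicated group. Cd5l is at 9.18 to 20.3 in ascites and up to 1.55 in the orthotopic and intestinal tumours, Adgre1 overlaps between them, and subcutaneous tumour 2 is highest for Timd4 (74.6), Cd5l (32.9) and Marco (44.2).

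Among 16 further genes reported in large peritoneal macrophages, 4 rose and none fell in either tap against the orthotopic tumours (median log2 fold change 3.43 in the first tap and 3.01 in the second, against 0.18 and 0.13 for all genes). Of all genes, 1.58% passed in the first tap and 1.09% in the second, in either direction. Those of the 16 that rose were F5, coagulation factor V (first tap 5.47, adjusted p = 0.0262), Saa3, an acute phase protein (6.49, adjusted p = 0.0384), Ednrb, an endothelin receptor (3.95, adjusted p = 0.0384), and Prg4, lubricin (4.64, adjusted p = 0.0479). F5 was at 31.9 to 182 CPM in ascites and 1.25 to 2.29 CPM in the orthotopic tumours. Vsig4, a complement receptor of resident macrophages, was at 12.7, 208 and 32.2 CPM in first taps 1, 2 and 3 and 59.0, 52.9 and 23.8 CPM in second taps 1, 2 and 3, against 0.882, 0.532 and 4.0 CPM in the orthotopic tumours, and was not among those that passed. Prg4 was also expressed by the line (23.8 CPM), as were Tgfb2 (61.5 CPM) and Garnl3 (7.66 CPM), while Vsig4, F5 and Ednrb had no count there. The highest of the 16 in the line were Bhlhe40 (442 CPM), Thbs1 (296 CPM) and Itga6 (99.3 CPM), and all 16 summed to 932 CPM.

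Genes of other macrophages moved in the same libraries. Against orthotopic tumours 1.58% of all genes passed in the first tap and 1.09% in the second, in either direction. Of the 14 pan-macrophage genes, 7 rose in the first tap and 8 in the second against orthotopic tumours, among them Itgam (5.00, adjusted p = 0.0312), Lyz2 (4.84, adjusted p = 0.0366) and Csf1r (3.26, adjusted p = 0.0439) in the first. Of 12 genes of small peritoneal and monocyte-derived macrophages, 2 rose in the first tap, the chemokine receptor Ccr2 (3.78, adjusted p = 0.0363) and the lysozyme gene Lyz1 (6.49, adjusted p = 0.0490), and Ccr2 alone in the second (4.39, adjusted p = 0.0375). Folr2, a folate receptor of resident macrophages in several tissues, rose in both taps (4.21, adjusted p = 0.0242 in the first). Clec4f, which defines the resident macrophages of liver, was at 0 in 4 of the 6 ascites libraries and at most 0.385 CPM in the others. Of 21 genes of the retinoic acid pathway and other regulators upstream of Gata6, none passed in either tap against orthotopic tumours. The retinoic acid receptor Rarg (1.91, adjusted p = 0.00391) and 4 others (Dhrs3, Csf1, Klf2 and Cebpb) were higher in ascites than in the intestinal tumours, which is 5 of 21 in a comparison where 18.3% of all genes passed, a share near that background.

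Selp and Icam2 are also endothelial genes. Of 9 other endothelial genes 4 fell in each tap against the orthotopic tumours, namely Cdh5, Kdr, Pecam1 and Egfl7. The share of all genes that passed in either direction was 1.58% in the first tap and 1.09% in the second. Cdh5, which encodes the cadherin of endothelial junctions, was at 0.441 to 2.31 CPM in ascites and 28.7 to 73.8 CPM in the orthotopic tumours (first tap -5.28, adjusted p = 0.0195). Of the other 5 endothelial genes none passed, and Esam and Sele had higher means in ascites. Esam was at 15.6 to 228 CPM there and 35.8 to 81.1 CPM in the orthotopic tumours (first tap 1.15, adjusted p = 0.425), and Sele at 0.143 to 3.86 CPM and 0.199 to 0.363 CPM (2.46, adjusted p = 0.161). The part of endothelial RNA in the Selp and Icam2 values was not tested. Of the 5 platelet genes Pf4 alone passed, and it rose in both taps (first tap 4.68, adjusted p = 0.0337). Itga2b was at 4.99 to 14.5 CPM in ascites and 5.58 to 10.1 CPM in the orthotopic tumours. Gp1ba was at 1.25 to 5.15 and 2.26 to 2.73 CPM, and Ppbp at 0.803 to 28.8 and 0.368 to 3.79 CPM. Gp9 was at 0.220 to 2.72 CPM in ascites. The sum of the 5 was 29.2 to 154 CPM in the first tap, 40.9 to 85.5 CPM in the second and 12.4 to 17.5 CPM in the orthotopic tumours. In first tap 2, Pf4 made up 129 of the 154 CPM. The part of platelet RNA in the Selp result was not tested.

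Orthotopic tumour 3 and intestinal tumour 3 each stood above the other 2 of their group in Alox15 (26.4 and 26.6 CPM), Marco (3.13 and 1.74 CPM) and Fcna (3.42 and 6.55 CPM). They did so as well in Vsig4 (4.0 and 13.6 CPM, others up to 0.882 CPM), the monocyte gene F13a1 (46.0 and 105 CPM, others up to 24.1 CPM) and Chil3 (156 and 237 CPM, others up to 3.99 CPM). The labels do not say whether these tumours came from the same animal, and no test was made of samples chosen in this way.

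Across the 17 libraries the levels of the 8 genes other than Gata6 were correlated with each other at Pearson r = 0.49 (Timd4 and Alox15) to 0.95 (Cd5l and Marco), and Gata6 with them at -0.63 (Icam2) to 0.02 (Fcna). Timd4 and Marco were at r = 0.90 and Timd4 and Cd5l at r = 0.87, the trio whose upstream sequences are printed above. Likeness was sought among 13668 tested genes with a mean of at least 5 CPM in some group, leaving out the listed genes and clone names. The genes most like each member by this measure were Cfp for Cd5l (r = 0.96), P2ry10b for Timd4 (r = 0.94), Lat2 for Marco (r = 0.92), Fpr1 for Fcna (r = 0.98), Arg1 for Alox15 (r = 0.97), Kcnk13 for Selp (r = 0.92), Pygl for Icam2 (r = 0.96) and Clec4a1 for Adgre1 (r = 0.98). Cfp encodes properdin of the complement system, Lat2 a signalling adaptor of immune cells, Fpr1 a receptor for bacterial peptides and Arg1 arginase. The next genes after P2ry10b for Timd4 were Cd40 and Cd180 (r = 0.91 each), which B cells and macrophages share, and those after Fpr1 for Fcna were Ltc4s and Wfdc17.

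**Figure D4:**
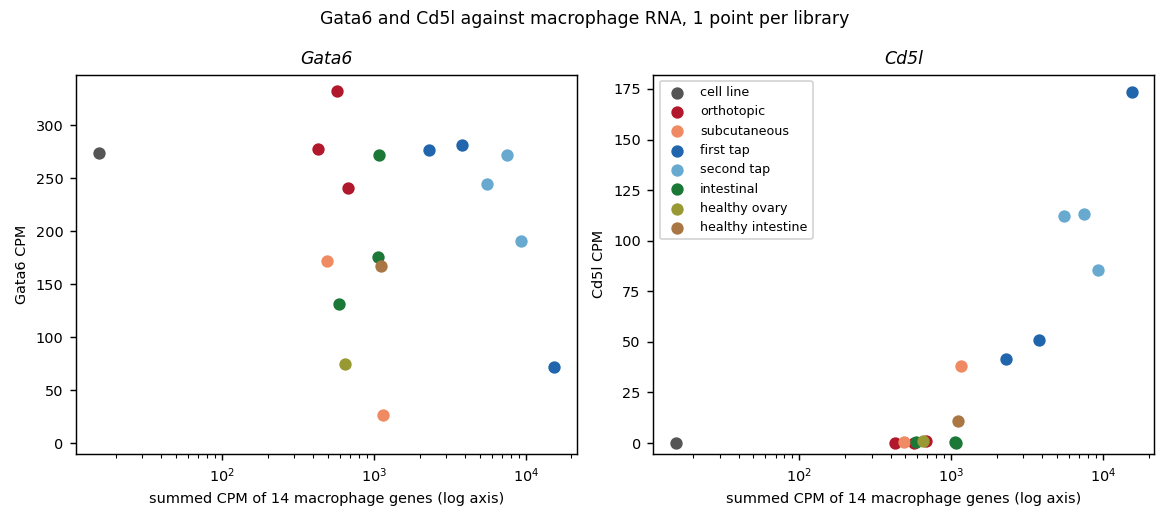
Gata6 (left) and Cd5l (right) in CPM against the summed CPM of 14 pan-macrophage genes on a log axis, with 1 point per library coloured by group. The cell line has a macrophage sum of 15.5 CPM with 274 CPM of Gata6 and no Cd5l, and the library with the highest sum, first tap 2, has 71.5 CPM of Gata6 and 173 CPM of Cd5l.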

How the data were processed

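Per the labels' protocols, Trizol was used for extraction and libraries of total RNA were strand-specific (NEBNext Ultra II, modified). The authors deposited raw read counts, whole numbers for each Ensembl gene. Per the submitters' processing notes, the tools were HISAT, HISAT2, featureCounts and DESeq2 and the builds hg19 and mm39, with no role stated for either build; versions were not given in the sources used here. For 1 column of the table no sample was found in the labels, and it was not used. Identifiers were named through a reference table (42462 of 43629 matched).

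Counts were tested in R 4.3.3 with edgeR 4.0.16: genes over 0.5 CPM in at least 2 libraries, TMM scaling, 1 robust quasi-likelihood fit of all 17 libraries with group means (9 residual degrees of freedom), and Benjamini-Hochberg adjustment over the 22671 genes tested, at a threshold of 0.05. This gave 7 comparisons between replicated groups. Lone libraries were described by level alone, with 3 counts as the floor for a count of 0, which covers counting error only. No pair of libraries held identical counts. DESeq2 1.42.0 was an alternative, and the script was tested on simulated data. Likeness used Pearson's r of log2(CPM + 1). The members and lists were chosen with earlier results of these data known. Named genes were the 9 members, the 3 genes most like each, and genes of the lists that passed or that define a cell type; other list genes, and the markers that stood apart in subcutaneous tumour 2, orthotopic tumour 3 and intestinal tumour 3, were named after their values were seen.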

Additional observations from a re-analysis of the deposited data

How the results depend on the processing

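In the first tap against orthotopic tumours (5 of 9 called) the count was 1 without the low-count filter and 3 with the library name prefix as a term, 7 in DESeq2, and 0 to 5 when 1 library was left out. In the second tap against orthotopic tumours (4 called) it was 1 without the filter, 2 with relative log expression scaling, 2 with the prefix and 7 in DESeq2, and 0 to 0 when 1 library was left out. Intestinal against orthotopic tumours (0 called) gave 1 in DESeq2 and 1 without subcutaneous tumour 3, first tap 3 and second tap 1 together, the libraries with the most genes counted. Subcutaneous against orthotopic tumours (0 called) gave 1 without the filter, 4 in DESeq2 and 0 without any 1 orthotopic tumour. Without those libraries only subcutaneous tumour 2 was left of its group, here and in the comparison with ascites. The log2 fold changes against orthotopic tumours were then 10.3 for Timd4, 6.18 for Cd5l and -3.57 for Gata6. Ascites against subcutaneous tumours (1 called) gave 3 in DESeq2 and 0 without those libraries, and 0 to 2 when 1 library was left out. Ascites against intestinal tumours (6 called) gave 4 without the filter, 7 in DESeq2, 7 without those libraries, 6 with the replicate block (Alox15 gained, Timd4 lost, adjusted p = 0.0573) and 4 to 6 when 1 library was left out, and the taps against each other 0 to 0. Causes were not tested. Whether the replicate numbers pair the samples could not be decided. Same-numbered libraries of different groups deviated together at r = -0.56 to 0.44, over 0.1 in 6 of 26 pairs. Of the 3 first taps, 1 was most like the second tap of its own number. Deviations were taken from the means of groups of 2 or 3 libraries, so within a group they depend on each other. In the 2 subcutaneous libraries they mirror each other. First taps 1, 2 and 3 were most like second taps 2, 1 and 3 (r = 0.67, 0.41 and 0.44), and whether these share an animal is not known. First tap 1 and second tap 2 were also the only ascites libraries with the name prefix S, the others having SM. The part of the prefix in these matches was not tested. With a replicate block 0 of the 9 were called in the first and 0 in the second tap against orthotopic tumours, and 55 and 18 of all genes instead of 358 and 248. The block fit used the 14 replicated libraries; these without the block, an alternative added after seeing the data, gave 373 and 247.

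Counts of all genes called moved with the tool more than with scaling. DESeq2 called 2591 genes in the first tap, 1994 in the second and 2274 in the subcutaneous tumours against orthotopic tumours (edgeR 358, 248 and 3), 5921 in the intestinal against orthotopic tumours (edgeR 3517) and 2861 in ascites against subcutaneous tumours (edgeR 1432). Relative log expression scaling gave 160 and the prefix term 114 in the second tap against orthotopic tumours. Without the 3 libraries with the most genes counted, 1327 were called in the first tap against orthotopic tumours. That setting left 1 subcutaneous library, so its count is not given for the subcutaneous tumours. Subcutaneous against orthotopic tumours gave 140 without the filter, 0 with the prefix, 7 with the 14 libraries and 16 with the block, and ascites against subcutaneous tumours gave 796 with the block. With 1 library left out the first tap gave 18 to 925 and the second 1 to 30 against orthotopic tumours, intestinal against orthotopic tumours 1205 to 4081, and ascites 2190 to 4460 against intestinal tumours. Subcutaneous against orthotopic tumours gave 0 without any 1 orthotopic tumour. Ascites against subcutaneous tumours gave 815 to 1792 without 1 ascites library. Of 72 group levels, 60 moved by less than 1 SD or their counting interval when scaled to the library total.

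A log2 fold change took the other sign in 44 cases, none of them called in edgeR with all libraries: 22 in the second against the first tap, 11 in intestinal against orthotopic, 5 in subcutaneous against orthotopic, 1 in ascites against intestinal and 5 in ascites against subcutaneous tumours, and 0 in either tap against orthotopic tumours. With 1 library left out, the values for the second against the first tap were Cd5l -0.11 to 1.17, Fcna -0.41 to 1.64, Gata6 -0.24 to 0.44, Selp -1.85 to 1.11, Alox15 -1.89 to 0.84, Icam2 -0.54 to 1.11, Adgre1 -0.89 to 1.14 and Marco -0.42 to 0.13. Those for intestinal against orthotopic tumours were Alox15 -2.07 to 4.25, Adgre1 -0.39 to 0.18, Icam2 -0.10 to 0.81, Cd5l -1.07 to 1.3, Marco -2.24 to 2.74, Selp -0.13 to 0.51 and Fcna -0.75 to 1.25, and those for subcutaneous against orthotopic tumours Alox15 -3.69 to 1.85, Fcna -0.79 to 0.28, Cd5l -0.67 to 6.76, Marco -0.43 to 7.78 and Icam2 -0.88 to 3.17. For ascites they were Gata6 -0.064 to 0.48 against intestinal tumours, and Timd4 -2.49 to 2.92, Icam2 -1.13 to 3.05 and Marco -0.14 to 5.79 against subcutaneous tumours. With the replicate block, Marco was 0.084 and Icam2 0.14 between the taps, and Icam2 0.27 in ascites against subcutaneous tumours. With the prefix term, Alox15 was 0.043 and Marco 0.040 between the taps. Without the 3 libraries with the most genes counted, Marco was 0.036 and Fcna -0.62 between the taps, and Marco -0.31 in ascites against subcutaneous tumours.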
